A study of Canis lupus familiaris with 17 samples.

Results

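The comparison described here sets scribKD cells given tetracycline against the same cells without it, across all 21571 transcripts of the expression tables, which is every transcript of the series. It used 12 of the 16 libraries, 6 of control cells and 6 of scribKD cells. The cells are MDCK, a canine kidney line that forms polarised epithelial sheets. The line carries a short hairpin RNA against scribble under a tetracycline-inducible promoter (MDCK-pTR scribble shRNA), so the controls carry the hairpin construct too and differed only in receiving no tetracycline. Each dish was plated with 1300000 cells, the scribKD dishes received tetracycline at 10 μg/ml, and RNA was collected after 67 h. The 3 experiments held 2 control and 2 scribKD libraries each, numbered here as replicates 1 and 2, 3 and 4, and 5 and 6. The study counts as many biological replicates of these groups as there were experiments. The 2 libraries of a group in 1 experiment are therefore not independent replicates. The standard errors and p-values given here, fitted over 6 libraries a group, rest partly on the spread within experiments. Cells without the hairpin but with tetracycline were not among these groups, so an effect of the drug and an effect of the knockdown cannot be told apart.

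Scribble is a large scaffold protein of the basolateral membrane. With Dlg and Lgl it sets the boundary between the apical and basolateral sides of epithelial cells, and it takes part in vesicle traffic, cell adhesion and the restraint of growth signalling. In the kidney tubule, that polarity places pumps, channels and transporters on the correct side of the cell. The question of the comparison is which genes the cells expressed at another level after losing scribble.

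Reads assigned to transcripts ranged from 13996564 to 29002703 in the 13 sequencing runs of these libraries, and experiment 1 was the deepest and experiment 2 the shallowest. For a transcript of 2 kb, 3 reads corresponded to 0.0517 to 0.107 RPKM (reads per kilobase of transcript, scaled to the reads of the library), which is the limit that a count of 0 allowed and covers counting error only. Control replicate 2 was sequenced in 2 runs whose reads differed by about sampling noise (chi-square per transcript 1.12), and their mean was counted as 1 library. The 2 libraries of experiment 1 differed from each other by far more, with a chi-square per transcript of 25.3 in control and 26.2 in scribKD cells, against 2.99 to 6.03 within experiments 2 and 3. Of 12 epithelial markers listed, 5 had a named transcript. In control cells they ran from the kidney-specific cadherin Cdh16 at 0.653 to 6.55 RPKM to the keratin Krt19 at 1039 to 1705 RPKM. In scribKD cells Cdh16 was at 0.174 to 1.13 RPKM and Krt19 at 697 to 1162 RPKM. The only named fibroblast marker, Dcn, reached at most 0.0560 RPKM and the only named blood or endothelial marker, Vwf, at most 0.178 RPKM. The lowest Cdh16 value in scribKD cells, 0.174 RPKM, was no higher than the highest Vwf value, 0.178 RPKM.

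Scrib itself, the target of the hairpin, was measured at 24.6 to 34.6 RPKM (median 28.7) in control and 9.75 to 16.2 RPKM (median 12.1) in scribKD cells. The groups did not overlap, and in each experiment both scribKD libraries were below both control libraries. Its log2 fold change was -1.17 ± 0.07 (SE), adjusted p = 1.82e-07, a 2.25-fold fall, with log2 differences of -1.31, -1.01 and -1.21 in experiments 1, 2 and 3. Only 6 genes of a list of 37 polarity genes had a named transcript, and all 6 passed the filter on low values. Stk11, the kinase LKB1 that acts upstream of AMPK and polarity, was at 28.7 to 33.7 RPKM (median 32.9) in control and 20.1 to 24.01 RPKM (median 21.8) in scribKD cells without overlap and fell by 0.55 on the log2 scale (adjusted p = 7.14e-06), a call lost without experiment 1. The planar polarity cadherin Celsr1 fell by 0.50 (adjusted p = 0.00112), a call that was lost when any 1 of 5 single libraries was left out. The remaining 3 were not called, with log2 fold changes of -0.43 for the related cadherin Celsr2, which was called without control replicate 1 or experiment 1, -0.34 for Lrrc1, a close relative of Scrib, and 0.33 for Lin7c, a partner of the Crumbs complex.

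Of 13178 transcripts with a mean of at least 1 RPKM, 1943 were called, which is 14.7% of those tested; 927 were higher in scribKD cells (7.03%) and 1016 were lower (7.71%). A call required a Benjamini-Hochberg adjusted p under 0.05 in limma, fitted with the experiment as a block, and an absolute log2 fold change above 0.5. In 1914 of the 1943, the difference had the same direction in all 3 experiments. The calls were made on these same libraries and experiments, so that count is not independent evidence. Most changes were moderate, with a median absolute log2 fold change of 0.71; 205 transcripts rose and 219 fell by more than 2-fold, and 27 rose and 22 fell by more than 4-fold. In bulk RNA, fewer cells of a kind and less RNA per cell cannot be told apart. With no fold threshold, 6281 transcripts passed. With the mean of each group in each experiment as 1 value (n = 3 a group) and the experiment as a block in limma, 1797 transcripts were called instead of 1943. Both fits called 1777 of them. Of the called genes named below, Pck1, Tmed6 and Krt15 were not called on experiment means.

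**Figure D1:**
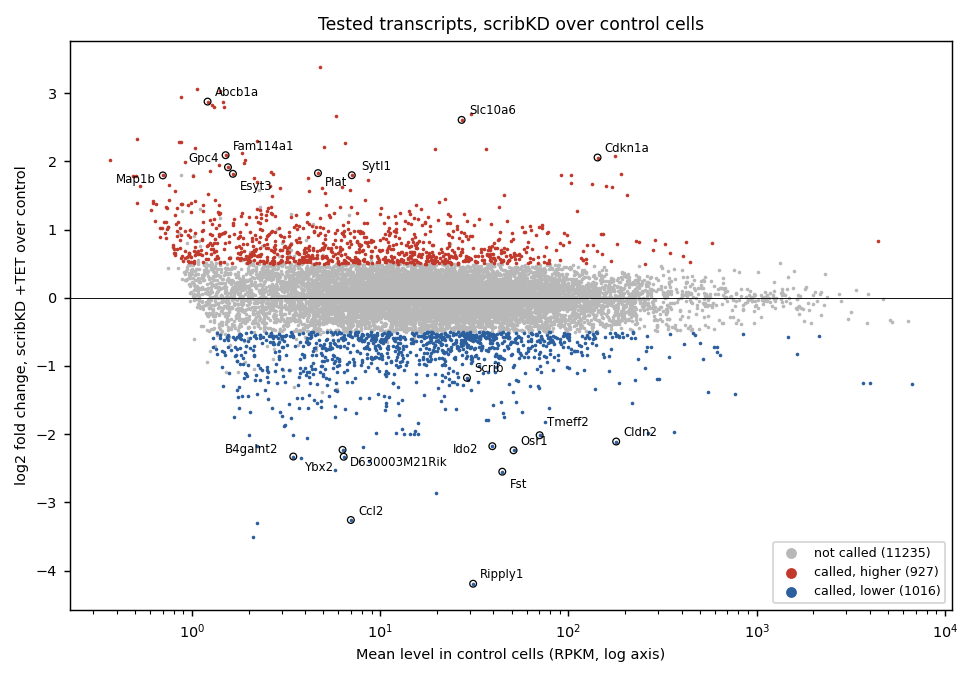
Mean level in control cells (horizontal, RPKM on a log axis) against the log2 fold change in scribKD over control cells (vertical) for the 13178 tested transcripts, with 927 called higher in red, 1016 called lower in blue and the rest in grey. Circles and names mark Scrib, 9 of the 10 largest named rises and the 10 largest named falls; Ripply1 lies lowest at -4.19 and Abcb1a at 2.87 is the highest named point.

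A gene name was at hand for 1606 of the tested transcripts, and 842 of these were called, 336 higher and 506 lower. This share is high because 1321 of the names come from the study's own list of transcripts that changed in this comparison, on these libraries. Among the 285 tested transcripts named independently of it, through RefSeq, 19 rose and 31 fell. The counts per gene list given below should therefore be set beside the shares for all named transcripts, of which 20.9% were higher and 31.5% were lower, with a median log2 fold change of -0.22, and the directions of list members are not independent evidence. For 8 of 27 lists, both shares lay within 15 percentage points of these (a limit chosen after the values were seen), and their counts are no result about the list. These lists are junctions, the actin cytoskeleton, immediate-early and CREB-responsive genes, EGFR and MAPK signalling, glucose metabolism, oxidative stress, immune-related genes, and autophagy and lysosome. The 1101 called transcripts without a name split into 591 higher and 510 lower. The largest rise of an unnamed transcript was that of XM_003434049.1, with a log2 fold change of 3.39, from a control median of 4.36 RPKM to a scribKD median of 72.1 RPKM.

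Ripply1, a transcriptional repressor known from the segmenting embryo, had the largest fall of any named gene. It was at 3.17 to 69.9 RPKM (median 27.8) in control and 0.276 to 4.89 RPKM (median 0.529) in scribKD cells. The ranges overlapped between experiments, but within each experiment both scribKD libraries lay below both controls, and the log2 fold change was -4.19 ± 0.41 (SE), adjusted p = 7.10e-06. Ccl2, the chemokine that attracts monocytes, was at 1.83 to 15.04 RPKM (median 4.98) in control and 0 to 1.45 RPKM (median 0.675) in scribKD cells, without overlap and at 0 in at least 1 scribKD library (log2 fold change -3.26 ± 0.41 (SE), adjusted p = 5.38e-05). Follistatin, Fst, a secreted protein that binds and blocks activins, was at 16.3 to 81.9 RPKM (median 34.7) in control and 3.03 to 12.7 RPKM (median 5.57) in scribKD cells, again without overlap (-2.55 ± 0.23 (SE), adjusted p = 3.52e-06). Tmeff2, a membrane protein with follistatin-like domains, was at 30.4 to 114 RPKM (median 60.5) in control and 7.63 to 21.1 RPKM (median 17.7) in scribKD cells, without overlap, and fell by 2.02 (adjusted p = 3.76e-06). Ido2, a dioxygenase that degrades tryptophan, was at 28.4 to 49.9 RPKM (median 39.5) in control and 5.56 to 12.1 RPKM (median 9.26) in scribKD cells, without overlap and with log2 differences of -2.27, -2.08 and -2.17 in experiments 1, 2 and 3. Falls of similar size were measured for Ybx2, a nucleic acid-binding protein of germ cells (-2.33), for the glycosyltransferase B4galnt2 (-2.33) and for D630003M21Rik, known only by a mouse clone name (-2.23).

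The largest named rise was that of Abcb1a, the multidrug efflux pump, measured at 0.442 to 1.81 RPKM (median 1.37) in control and 7.27 to 11.3 RPKM (median 8.21) in scribKD cells. The groups were well separated and the log2 fold change was 2.87 ± 0.21 (SE), adjusted p = 6.76e-07. The transcript named Slc10a6 in the study's list for this comparison (a carrier of steroid sulphates; another table of the study names the same transcript differently) was at 14.6 to 48.4 RPKM (median 18.8) in control and 79.5 to 358 RPKM (median 113) in scribKD cells, without overlap (2.61 ± 0.12 (SE), adjusted p = 3.12e-08). Cdkn1a, the cyclin-dependent kinase inhibitor p21, was the most abundant of the 10 largest rises, at 109 to 196 RPKM (median 132) in control and 438 to 758 RPKM (median 594) in scribKD cells, without overlap (2.06 ± 0.12 (SE), adjusted p = 1.65e-07). Sytl1, a Rab27 effector in secretory vesicle docking, was at 5.49 to 9.28 RPKM (median 6.71) in control and 21.9 to 27.4 RPKM (median 24.2) in scribKD cells, and the membrane tether Esyt3 of endoplasmic reticulum contact sites was at 1.14 to 2.11 RPKM (median 1.75) in control and 5.14 to 6.60 RPKM (median 6.11) in scribKD cells. Both were without overlap, with log2 fold changes of 1.80 and 1.82. Fam114a1, a little-studied gene, rose by 2.09, and Map1b, a microtubule-associated protein, rose by 1.79 from control levels of 0.375 to 1.61 RPKM. Plat and Gpc4 were also among the largest named rises and are described with the matrix genes.

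Named transcripts of kidney tubule identity and transport moved in 1 direction. Of 35 tested transcripts of this list, 26 were lower, 0 were higher and 9 were not called, and all 35 fitted values lay below 0 with a median of -0.66; 3 of the 4 members named through RefSeq, Fxyd2, Ca2 and Pck1, were among the lower ones. By experiment the median log2 difference was -0.45, -0.76 and -0.86. Osr1, a zinc-finger transcription factor of the early kidney, was at 22.4 to 99.0 RPKM (median 32.4) in control and 3.90 to 14.1 RPKM (median 11.1) in scribKD cells, without overlap (log2 fold change -2.24 ± 0.18 (SE), adjusted p = 1.62e-06). Cldn2, the claudin that forms cation pores in the tight junctions of the proximal tubule, was at 66.6 to 296 RPKM (median 179) in control and 13.8 to 84.6 RPKM (median 40.9) in scribKD cells. Its control level differed several-fold between experiments, so the ranges overlapped, yet the difference was almost the same in each, with log2 differences of -2.22, -2.13 and -1.97 in experiments 1, 2 and 3, and the fold change had a small error (-2.11 ± 0.07 (SE), adjusted p = 2.46e-09). Slc22a12, the urate transporter URAT1, was at 2.98 to 18.9 RPKM (median 7.32) in control and 1.27 to 2.77 RPKM (median 1.72) in scribKD cells, without overlap (-1.99 ± 0.20 (SE), adjusted p = 7.56e-06). The amino acid transporter Slc7a8 was at 4.32 to 27.2 RPKM (median 6.86) in control and 1.13 to 7.10 RPKM (median 1.79) in scribKD cells and fell by 1.98. Cdh16 fell by 1.86, the sodium pump subunit Fxyd2 by 1.74 and Lrp2, the endocytic receptor megalin, by 1.68, all from control levels that varied between experiments and with overlapping ranges. In each of these 3 genes both scribKD libraries of every experiment were below both controls.

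**Figure D2:**
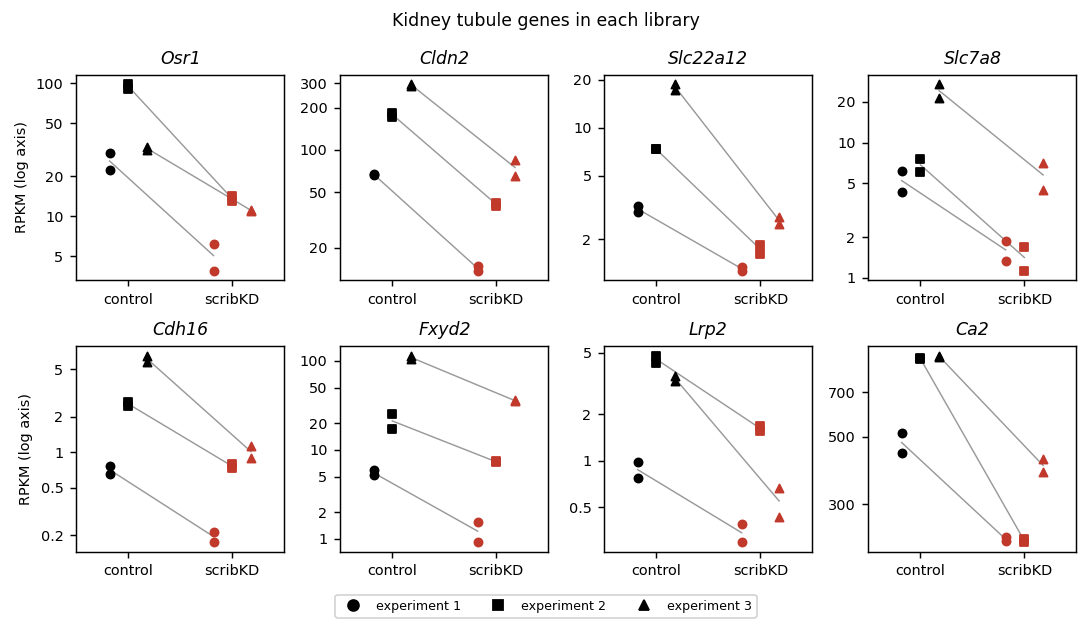
Level of 8 kidney tubule genes in each library (RPKM, log axes), with control libraries in black and scribKD libraries in red, circles, squares and triangles for experiments 1, 2 and 3, and grey lines joining the mean of each experiment. Every line falls, while the starting level differs between experiments, as for Fxyd2, whose control values run from 5.15 to 115 RPKM.

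Ca2, carbonic anhydrase 2, was the most abundant of these genes, at 444 to 925 RPKM (median 904) in control and 225 to 422 RPKM (median 232) in scribKD cells, without overlap (-1.41 ± 0.13 (SE), adjusted p = 3.66e-06). The gluconeogenic enzyme Pck1 was also called (-1.24 ± 0.37 (SE), adjusted p = 0.0156), but it fell in experiments 2 and 3 and not in experiment 1 (log2 differences of 0.26, -1.76 and -2.23) and was not called without experiment 2 or without experiment 3. Pax8, a transcription factor that specifies kidney epithelium, was lower too, at 40.2 to 53.8 RPKM (median 48.2) in control and 22.6 to 32.5 RPKM (median 30.3) in scribKD cells, without overlap, with a log2 fold change of -0.73. The transcripts called Dsg3, Rdh10 and Osgin1 have another name in a second table of the study. The tight-junction magnesium channel Cldn16 fell by 0.99 (adjusted p = 7.47e-04). Among 27 tested homeobox and lineage transcription factors, 15 were lower (55.6%, against 31.5% of all named transcripts) and 5 were higher (18.5%, against 20.9%). The median was -0.52. Only 1 of the 27 was named through RefSeq, and it was not called. Foxa2 (-0.80), Hoxd9 (-0.90), Foxp1 (-0.87), Arid3a (-0.86) and Irx3 (-0.83) were on the lower side. Runx2, a regulator of bone and mesenchymal genes, was the largest rise at 1.53 to 6.97 RPKM (median 3.94) in control and 6.59 to 11.7 RPKM (median 8.46) in scribKD cells (1.24 ± 0.17 (SE), adjusted p = 1.11e-04), and Lbx2 (1.08), Klf7 (1.01) and Gata3 (0.95) rose with it.

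The primary cilium, the sensory antenna of tubule cells, had 20 tested genes, with a median of -0.47. Of these, 9 fell (45%, against 31.5% of all named transcripts) and 1 rose (5%, against 20.9%). Only 1 of the 20 was named through RefSeq, and it was not called. Wdr34, an intermediate chain of the dynein that carries cargo back along the cilium, was at 16.6 to 32.3 RPKM (median 20.5) in control and 8.37 to 14.2 RPKM (median 9.32) in scribKD cells, without overlap (-1.10 ± 0.07 (SE), adjusted p = 4.58e-07). Ift140, a part of the retrograde transport complex, fell by 1.00, the microtubule-binding protein Dcdc2a by 0.87 and the hedgehog receptor component Smo by 0.68. Arl13b, a small GTPase of the ciliary membrane, was the member that rose (0.53 ± 0.06 (SE), adjusted p = 3.48e-05), although it was not called without scribKD replicate 2.

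**Figure D3:**
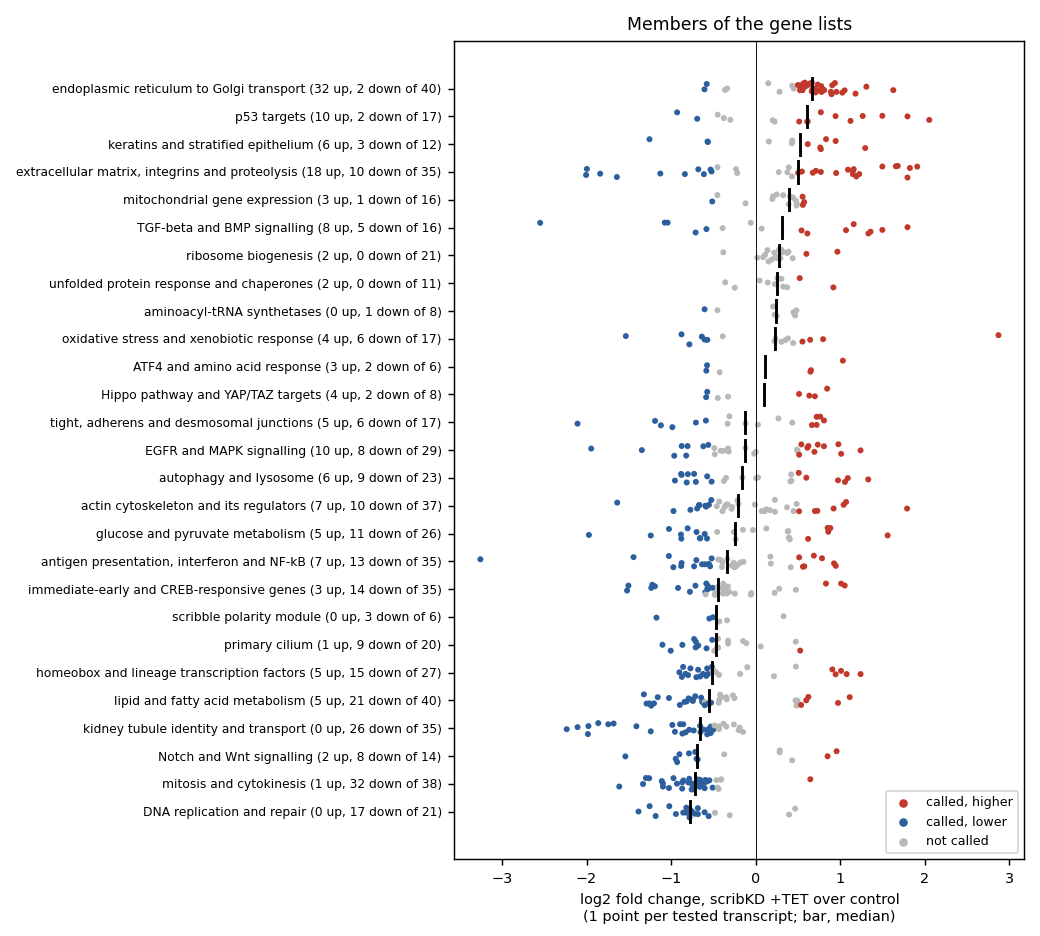
Log2 fold change in scribKD over control cells for each tested transcript of 27 gene lists, 1 row per list ordered by its median (black bar), with called transcripts in red (higher) or blue (lower) and others in grey. DNA replication and mitosis lie at the lower end, kidney tubule transport has no member above 0, and endoplasmic reticulum to Golgi transport lies at the upper end.

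Of 17 tested cell junction genes, 6 were lower (35.3%, against 31.5% of all named transcripts) and 5 were higher (29.4%, against 20.9%), and the median was -0.12. The lower ones included the tight-junction proteins Cldn2 and Cldn16, Tjp3 (the scaffold ZO-3, 16.2 to 35.0 RPKM (median 19.3) in control and 7.87 to 13.0 RPKM (median 9.32) in scribKD cells, without overlap, -1.19 ± 0.10 (SE), adjusted p = 2.62e-06) and F11r (the adhesion molecule JAM-A, -0.59), as well as the cadherin Cdh24 (-1.12). The higher ones included the desmosomal plaque protein Dsp, at 29.1 to 55.7 RPKM (median 40.7) in control and 56.3 to 85.7 RPKM (median 62.1) in scribKD cells, without overlap (0.72 ± 0.08 (SE), adjusted p = 1.58e-05), the desmosomal cadherin Dsg3 (0.76), the junctional adaptor Lmo7 (0.81) and the scaffold Magi1 (0.67). Ocln, a tight-junction protein used as an epithelial marker, was at 29.6 to 39.1 RPKM (median 32.5) in control and 31.7 to 36.6 RPKM (median 33.7) in scribKD cells and was not called (0.03 ± 0.06 (SE), adjusted p = 0.743). Whether junction classes differ as classes was not tested.

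Of 12 tested genes of keratins and stratified epithelium, 6 were higher (50%) and 3 were lower (25%). Of all named transcripts, 20.9% were higher and 31.5% were lower. Krt16, a keratin of activated and stratified epithelium, was at 8.75 to 31.4 RPKM (median 11.1) in control and 20.2 to 81.6 RPKM (median 24.9) in scribKD cells (1.30 ± 0.09 (SE), adjusted p = 4.18e-07), and Krt80 rose by 0.83. Among keratins named through RefSeq, the simple-epithelium keratin Krt19 fell by 0.57 with log2 differences of -0.58, -0.54 and -0.59 in experiments 1, 2 and 3, Krt15 fell by 0.57, a call lost without experiment 2, and the basal keratin Krt14 was not called (0.16 ± 0.09 (SE), adjusted p = 0.189). Vim, the intermediate filament protein vimentin of mesenchymal and cultured cells, was among the most abundant changed transcripts at 3321 to 4184 RPKM (median 3574) in control and 1385 to 1655 RPKM (median 1544) in scribKD cells, without overlap, and fell by 1.26 (adjusted p = 1.91e-08). Of the 5 named epithelial markers, 4 were lower (Cdh16, Pax8, F11r and Krt19), which is 80%, against 31.5% of all named transcripts. Only 2 of the 5 were named through RefSeq, Krt19, which was lower, and Ocln, which was not called. The other listed markers had no named transcript, so the count does not show how epithelial markers moved in general.

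The list of extracellular matrix, integrins and proteolysis had 35 tested genes, with a median of 0.50. Of these, 18 were higher (51.4%, against 20.9% of all named transcripts) and 10 were lower (28.6%, against 31.5%). Of 5 members named through RefSeq, 3 were higher and 0 were lower. Plat, the tissue plasminogen activator, was at 2.95 to 7.78 RPKM (median 4.18) in control and 12.8 to 20.5 RPKM (median 15.5) in scribKD cells, without overlap (1.83 ± 0.11 (SE), adjusted p = 2.16e-07). The heparan sulphate proteoglycan Gpc4 was at 0.731 to 2.22 RPKM (median 1.5) in control and 4.14 to 8.06 RPKM (median 5.95) in scribKD cells, without overlap (1.91 ± 0.20 (SE), adjusted p = 9.91e-06). Timp3, an inhibitor of matrix metalloproteinases, was at 73.5 to 182 RPKM (median 139.6) in control and 164 to 699 RPKM (median 561) in scribKD cells and rose by 1.66. The fibrillar-associated collagen Col12a1 rose by 1.23 and the hyaluronan receptor Cd44, named through RefSeq, was at 60.05 to 126 RPKM (median 97.9) in control and 151 to 224 RPKM (median 169) in scribKD cells, without overlap, and rose by 0.95. Among the falls, the chondroitin sulphate proteoglycan Vcan was at 9.78 to 22.1 RPKM (median 15.7) in control and 1.06 to 7.36 RPKM (median 5.97) in scribKD cells, without overlap (-1.997 ± 0.22 (SE), adjusted p = 1.99e-05). Pappa, a metalloproteinase that cleaves insulin-like growth factor-binding proteins, fell by 2.01, the leucine-rich proteoglycan Podn by 1.84 and the metalloproteinase Adamts1 by 1.64.

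The transforming growth factor-β family overlapped with this group. TGF-β and activins bind paired receptors that activate Smad2 and Smad3, while bone morphogenetic proteins act through other Smads, and follistatin blocks activin. Of 16 tested genes of the list, 8 were higher (50%, against 20.9% of all named transcripts) and 5 were lower (31.2%, against 31.5%). Among ligands, the activin subunit Inhba was at 10.9 to 20.7 RPKM (median 15.7) in control and 15.4 to 85.7 RPKM (median 45.1) in scribKD cells and rose by 1.36 (adjusted p = 5.25e-05), while Bmp4 was at 47.3 to 88.1 RPKM (median 72.4) in control and 21.2 to 46.9 RPKM (median 33.9) in scribKD cells, without overlap, and fell by 1.04. Gdf11 fell by 1.08. The extracellular modulator Kcp and the inhibitory Smad6 fell by 0.71 and 0.58, and Kcp was not called without experiment 2 or without experiment 3. The receptor Tgfbr2 was at 29.0 to 34.9 RPKM (median 31.6) in control and 60.4 to 75.3 RPKM (median 64.9) in scribKD cells, without overlap (1.07 ± 0.07 (SE), adjusted p = 3.06e-07). Pmepa1 was at 31.4 to 57.7 RPKM (median 39.4) in control and 76.8 to 129 RPKM (median 116) in scribKD cells and rose by 1.34. Tgfbi rose by 1.16. Thbs1, which encodes an activator of latent TGF-β, was at 154 to 253 RPKM (median 210.3) in control and 295 to 999 RPKM (median 689.7) in scribKD cells, without overlap (1.5 ± 0.16 (SE), adjusted p = 1.65e-05). Fst, the activin antagonist, had the largest fall of the list.

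Most named transcripts of transport between the endoplasmic reticulum and the Golgi were higher. COPII coats carry cargo out of the endoplasmic reticulum, COPI coats return it from the Golgi, and small GTPases of the Arf family recruit the latter. Of 40 tested transcripts, 32 were higher, 2 were lower and 6 were not called, and the median log2 difference was 0.62, 0.63 and 0.70 in experiments 1, 2 and 3. Only 5 of the 40 were named through RefSeq, and of these 1 was higher and 1 was lower. The others had their names from the study's list of changed transcripts, so the counts do not show how the whole function moved. Arf4 was at 157 to 196 RPKM (median 168) in control and 395 to 651 RPKM (median 544) in scribKD cells, without overlap (1.63 ± 0.11 (SE), adjusted p = 4.41e-07). The COPII subunit Sec24a was at 7.83 to 12.5 RPKM (median 10.1) in control and 21.4 to 35.0 RPKM (median 22.8) in scribKD cells, also without overlap (1.31 ± 0.09 (SE), adjusted p = 4.18e-07), and Sec13, another COPII subunit, rose by 0.81. The COPI subunit Copb1 was at 58.1 to 67.2 RPKM (median 61.9) in control and 122 to 136 RPKM (median 132) in scribKD cells, without overlap, with almost equal log2 differences of 1.02, 1.04 and 1.10 and an adjusted p of 6.97e-08. The golgin partner Blzf1 rose by 1.18, the Golgi SNARE Gosr2 by 0.89, the retrieval receptor Kdelr3 by 0.91 and the calcium-binding protein Calu by 0.94. Creb3, a membrane-bound transcription factor that is released by cleavage in the Golgi, was at 49.6 to 67.1 RPKM (median 58.8) in control and 97.0 to 131 RPKM (median 112) in scribKD cells, without overlap (0.96 ± 0.07 (SE), adjusted p = 5.08e-07). The members that fell were the cargo lectin Lman2, named through RefSeq (-0.58 ± 0.06 (SE), adjusted p = 1.86e-05), and Tmed6 (-0.61), which was lower in experiments 1 and 3 only and was not called without either of them.

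**Figure D4:**
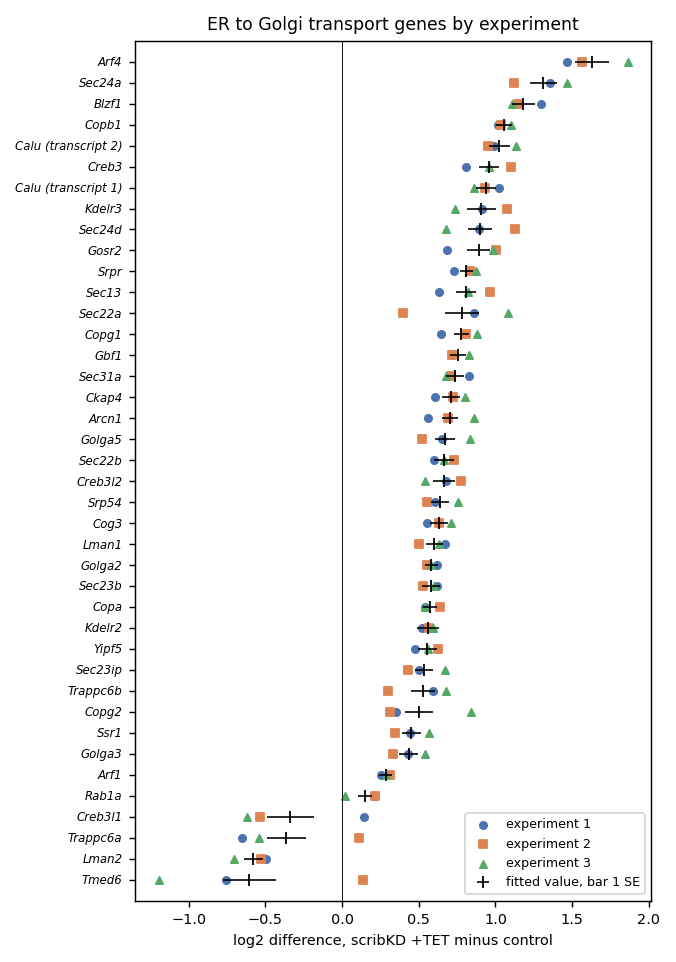
Log2 difference between scribKD and control cells for each of the 40 tested transcripts of endoplasmic reticulum to Golgi transport, with circles, squares and triangles for experiments 1, 2 and 3 and black ticks with 1 SE for the fitted value over 6 control and 6 scribKD libraries. The 32 called rises lie above 0 in every experiment, from Copg2 to Arf4 at 1.63.

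Of 11 tested genes of the unfolded protein response and of chaperones, 2 were higher and 0 were lower. The higher ones were Hsp90ab1, a cytosolic Hsp90 (0.92), and Uggt2 (0.52), whose call was lost without scribKD replicate 1 or 5, without experiment 1 and without experiment 3. In the list, 1 gene was lower without experiment 1, control replicate 1 or scribKD replicate 1. Canx, the chaperone calnexin, was at 431 to 578 RPKM (median 523) in control and 539 to 621 RPKM (median 563) in scribKD cells and was not called (0.14 ± 0.06 (SE), adjusted p = 0.081). Hsp90b1, the endoplasmic reticulum form of Hsp90, ran from 429 to 1208 RPKM (median 813) in control and 455 to 2164 RPKM (median 1104) in scribKD cells and was not called either (0.37 ± 0.22 (SE), adjusted p = 0.183). Of 6 tested genes of the amino acid response to the transcription factor ATF4, 3 were higher, among them Fgf21, a secreted metabolic hormone, at 12.3 to 81.2 RPKM (median 76.9) in control and 31.5 to 159 RPKM (median 133) in scribKD cells (1.03 ± 0.09 (SE), adjusted p = 2.41e-06), the serine synthesis enzyme Psph (0.66) and Aldh1l2 of mitochondrial folate metabolism (0.65), and 2 were lower, the phosphatase subunit Ppp1r15a (-0.58) and the transaminase Bcat2 (-0.57). Without experiment 3, neither of the lower ones nor Aldh1l2 was called, and Bcat2 was also not called without replicate 2 of either group. Aminoacyl-tRNA synthetases had 0 higher and 1 lower of 8, Yars (-0.60); 2 were higher without experiment 1, experiment 2, control replicate 1 or scribKD replicate 1. Ribosome biogenesis had 2 higher (4 without experiment 2) and 0 lower of 21. The higher ones were the RNA polymerase III subunit Polr3d (19.1 to 34.5 RPKM (median 28.4) in control and 44.6 to 56.9 RPKM (median 52.6) in scribKD cells, without overlap, 0.97) and the helicase Ddx59 (0.60). Mitochondrial gene expression had 3 higher of 16, Mrpl17 (0.57), Cox15 (0.56) and Mterfd3 (0.56), and 1 lower, Mrpl41 (-0.51), whose call was lost without any 1 of 5 libraries. Ddx59, Mrpl17 and Mterfd3 were not called without experiment 3. The number of higher ones was 7 without experiment 1, 6 without experiment 2, control replicate 1 or scribKD replicate 1, 5 without scribKD replicate 3 and 1 without experiment 3.

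Named cell cycle genes were mostly lower. Through RefSeq, 2 replication and 3 mitosis genes were named, of which 1 and 3 were lower. DNA replication and repair had 17 lower and 0 higher of 21, with a median of -0.78, and mitosis and cytokinesis had 32 lower and 1 higher of 38, with a median of -0.71. Rrm2, the ribonucleotide reductase subunit that supplies deoxynucleotides, was at 444 to 741 RPKM (median 495) in control and 127 to 324 RPKM (median 188) in scribKD cells, without overlap (-1.39 ± 0.10 (SE), adjusted p = 7.28e-07). Hmgb2, a chromatin protein of proliferating cells, was at 132 to 147 RPKM (median 137) in control and 48.0 to 60.3 RPKM (median 55.9) in scribKD cells, without overlap (-1.33 ± 0.06 (SE), adjusted p = 1.91e-08). The centromere proteins Hjurp (-1.30) and Cenpf (-1.26), the proliferation marker Mki67 (-1.11), the helicase subunit Mcm5 (-1.02) and the transcription factors Myb (-1.25) and E2f7 (-1.18) fell. In experiment 1 the median log2 difference of the mitosis list was -1.03, against -0.46 and -0.64 in experiments 2 and 3. Wee1, the kinase that delays entry into mitosis, was the member that rose (28.9 to 50.4 RPKM (median 35.5) in control and 44.6 to 83.1 RPKM (median 55.9) in scribKD cells, 0.65). Of 17 tested p53 targets, 10 were higher and 2 were lower (Notch1 and Gtse1, -0.69, the latter not called without experiment 1), and besides Cdkn1a the cyclin Ccng1 (1.27) and the p53 ligase Mdm2 (0.95) rose without overlap.

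In the EGFR and MAPK list of growth factor signalling, 10 of 29 tested were higher (34.5%, against 20.9% of all named transcripts) and 8 were lower (27.6%, against 31.5%). The receptor Egfr was at 4.61 to 11.2 RPKM (median 6.70) in control and 9.75 to 19.2 RPKM (median 13.4) in scribKD cells (0.98 ± 0.09 (SE), adjusted p = 3.71e-06), with log2 differences of 0.85, 1.09 and 1.00 in experiments 1, 2 and 3, whereas Fgfr2, a receptor of fibroblast growth factors, was at 52.5 to 93.7 RPKM (median 73.5) in control and 34.9 to 48.3 RPKM (median 40.4) in scribKD cells, without overlap, and fell by 0.87. Downstream transcription factors Fosl1 (1.01) and Ets1 (0.74) rose. Fgfbp1, which releases fibroblast growth factors from the matrix, was at 11.4 to 20.4 RPKM (median 14.8) in control and 1.78 to 6.19 RPKM (median 4.40) in scribKD cells, without overlap (-1.95 ± 0.26 (SE), adjusted p = 8.61e-05). The Ras GTPase activator Rasal1 fell by 1.35 and the epithelial transcription factor Ehf by 0.96.

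Immediate-early genes respond to stimuli within minutes. The list that joins them with genes responsive to the transcription factor CREB had 14 lower (40%, against 31.5% of all named transcripts) and 3 higher (8.57%, against 20.9%) of 35. Of these, 9 were lower without experiment 3 and 5 were higher without experiment 2. Fos was at 221 to 412 RPKM (median 275) in control and 41.9 to 219.6 RPKM (median 165) in scribKD cells, without overlap (-1.19 ± 0.21 (SE), adjusted p = 5.52e-04), but its difference varied, with log2 differences of -0.70, -1.85 and -1.03 in experiments 1, 2 and 3. The related Fosb (-1.22) and Ier5l (-1.23) also fell. Gadd45g and Nr4a1 were called at -1.51 and -1.52, with log2 differences near 0 in experiment 1 (-0.10 and 0.03), and neither was called without experiment 2 or without experiment 3. The higher ones were Bhlhe41 (1.06), Fosl1 and Maff (0.83).

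Notch and Wnt genes were lower in 8 of 14 (57.1%, against 31.5% of all named transcripts) and higher in 2 (14.3%, against 20.9%). Of the 14, 0 were named through RefSeq. The receptor Notch1 was at 15.7 to 26.1 RPKM (median 21.9) in control and 8.67 to 14.8 RPKM (median 10.9) in scribKD cells, without overlap (-0.93 ± 0.09 (SE), adjusted p = 7.65e-06), and its ligand Dll1 rose by 0.85 at levels of 0.811 to 3.07 RPKM. Among Wnt ligands, Wnt2 fell by 1.54 and Wnt7a rose by 0.96, and Rnf43, which removes Wnt receptors from the cell surface, fell by 0.95. The list of the Hippo pathway and YAP/TAZ targets had 8 tested genes, of which 0 were named through RefSeq. Among the 8, 4 were higher (50%, against 20.9% of all named transcripts) and 2 were lower (25%, against 31.5%). Without experiment 3, 2 were higher. The coactivator TAZ, encoded by Wwtr1, was at 107 to 139 RPKM (median 126) in control and 78.1 to 84.3 RPKM (median 81.2) in scribKD cells, without overlap (-0.59 ± 0.06 (SE), adjusted p = 1.14e-05), and its partner Tead2 fell by 0.57. F3, tissue factor, rose by 0.85, and Myof, a membrane repair protein, by 0.70, with Lifr (0.64) and Frmd6 (0.51) as the remaining rises. Neither Lifr nor Frmd6 was called without experiment 3, and Frmd6 was also not called without control replicate 3 or 6, scribKD replicate 3 or 6, or experiment 2.

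Of 40 tested genes of lipid and fatty acid metabolism, 21 fell (52.5%, against 31.5% of all named transcripts). A further 5 rose (12.5%, against 20.9%), and the median was -0.55. Of the 2 members named through RefSeq, 1 was higher and 0 were lower. The number that rose was 8 without experiment 1, without experiment 2 or without control replicate 2, scribKD replicate 2 or scribKD replicate 4. Cpt2, which handles fatty acids inside mitochondria for oxidation, was at 36.2 to 57.8 RPKM (median 50.9) in control and 15.8 to 23.97 RPKM (median 20.4) in scribKD cells, without overlap (-1.26 ± 0.06 (SE), adjusted p = 4.67e-08). The fatty acid carrier Fabp3 fell by 1.29, and 2 enzymes of retinoid metabolism, Rdh10 and Aldh1a1, fell by 1.32 and 1.20. Abca1, the cholesterol exporter, and Smpd1, acid sphingomyelinase, rose by 1.11 and 0.98, as did Sgms2 (0.62), Pla2g7 (0.60) and Crot (0.54, not called without scribKD replicate 5 or experiment 3). In glucose metabolism and the hypoxia response, 11 of 26 tested were lower (42.3%, against 31.5% of all named transcripts) and 5 were higher (19.2%, against 20.9%). Stc1, the secreted glycoprotein stanniocalcin, was at 141 to 556 RPKM (median 398) in control and 53.9 to 112 RPKM (median 84.6) in scribKD cells, without overlap (-1.97 ± 0.17 (SE), adjusted p = 2.92e-06). Pdk2, the kinase that restrains pyruvate dehydrogenase, fell by 1.03 and the lactate transporter Slc16a1 by 0.80. Epas1, the hypoxia-inducible factor HIF-2α, was at 1.23 to 10.3 RPKM (median 2.34) in control and 5.18 to 22.9 RPKM (median 6.33) in scribKD cells and rose by 1.56 (adjusted p = 1.16e-05), while Vegfa, a target of hypoxia-inducible factors named through RefSeq, was not called (-0.03 ± 0.09 (SE), adjusted p = 0.8).

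Of 17 tested genes of oxidative stress and xenobiotic response, 4 were higher (23.5%, against 20.9% of all named transcripts) and 6 were lower (35.3%, against 31.5%). The glutathione transferase Gstt2 was at 157 to 257 RPKM (median 233) in control and 54.9 to 87.6 RPKM (median 79.4) in scribKD cells, without overlap (-1.54 ± 0.06 (SE), adjusted p = 6.37e-09), and the quinone reductase Nqo1 was at 491 to 659 RPKM (median 598) in control and 568 to 1616 RPKM (median 1096) in scribKD cells and rose by 0.80. Abcb1a, Pir (0.65) and Txnrd3 (0.55) were the other higher ones, the last not called without control replicate 6, scribKD replicate 5 or 6, or experiment 3. Autophagy and lysosome genes had 9 lower (39.1%, against 31.5%) and 6 higher (26.1%, against 20.9%) of 23. The early autophagosome protein Wipi1 rose from 3.73 to 13.0 RPKM (median 6.86) in control and 12.4 to 22.5 RPKM (median 15.1) in scribKD cells (1.33 ± 0.16 (SE), adjusted p = 2.75e-05), together with Atg9b (1.09) and the lysosomal glycoprotein Gpnmb (1.06). The lysosomal hydrolases Gla (-0.95), Lipa (-0.82) and Ctsd (-0.73) and the transcription factor Tfeb (-0.57), which controls lysosomal genes, fell.

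Immune-related genes included 13 lower (37.1%, against 31.5% of all named transcripts) and 7 higher (20%, against 20.9%) of 35. Besides Ccl2, the antibody carrier Pigr of mucosal epithelium fell by 1.45, Ifi30, a lysosomal thiol reductase, fell by 1.03, and the peptide transporter Tap1 was at 36.7 to 45.8 RPKM (median 38.6) in control and 22.3 to 29.5 RPKM (median 26.9) in scribKD cells, without overlap, and fell by 0.60. The adhesion molecule Icam1, named through RefSeq, was at 42.5 to 55.01 RPKM (median 51.1) in control and 74.0 to 119 RPKM (median 105) in scribKD cells, without overlap (0.95 ± 0.07 (SE), adjusted p = 5.97e-07). Birc3, an inhibitor of apoptosis in NF-κB signalling, was at 11.5 to 22.02 RPKM (median 18.2) in control and 27.4 to 37.6 RPKM (median 32.9) in scribKD cells, without overlap, and rose by 0.93, and the cytokine receptors Osmr (0.58) and Il1rap (0.79) rose. Of 37 tested genes of the actin cytoskeleton and its regulators, 10 were lower (27%, against 31.5%) and 7 were higher (18.9%, against 20.9%). The bundling protein Pls1 of microvilli was at 14.7 to 28.1 RPKM (median 23.5) in control and 4.81 to 9.22 RPKM (median 6.89) in scribKD cells, without overlap (-1.64 ± 0.09 (SE), adjusted p = 8.35e-08), while the stress-fibre protein Palld and the actin-binding Cap2 rose by 1.04 and 1.07. Actb, β-actin, was not called (0.07 ± 0.08 (SE), adjusted p = 0.466).

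The response was then compared between the experiments. An F-test of the interaction of treatment and experiment in limma passed an adjusted p of 0.05 in 440 of the 13178 tested transcripts (3.34%), 126 of them called in the overall comparison and 116 of these in the same direction in all 3 experiments. Its error came only from the spread between the 2 libraries of a group within an experiment, which are not independent replicates. The p-values therefore do not measure how far a response would vary among repeated experiments. Among the 126, the change was largest in experiment 1 for 34, in experiment 2 for 49 and in experiment 3 for 43. Vcan (-1.24, -1.76 and -3.00) and Slc22a12 (-1.19, -2.03 and -2.74) fell most in experiment 3. Fgfbp1 (-1.36, -3.18 and -1.30), Stc1 (-1.88, -2.69 and -1.35), Adamts1 (-1.31, -2.55 and -1.06) and Ca2 (-1.05, -1.99 and -1.19) fell most in experiment 2. Timp3 (1.65, 2.27 and 1.06) rose least in experiment 3, in which Abcb1a (2.37, 2.50 and 3.76) rose most. The levels of control cells differed between experiments too, as for Ripply1, which ran from 3.17 and 6.72 RPKM in experiment 1 to 51.8 and 69.9 RPKM in experiment 3.

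**Figure D5:**
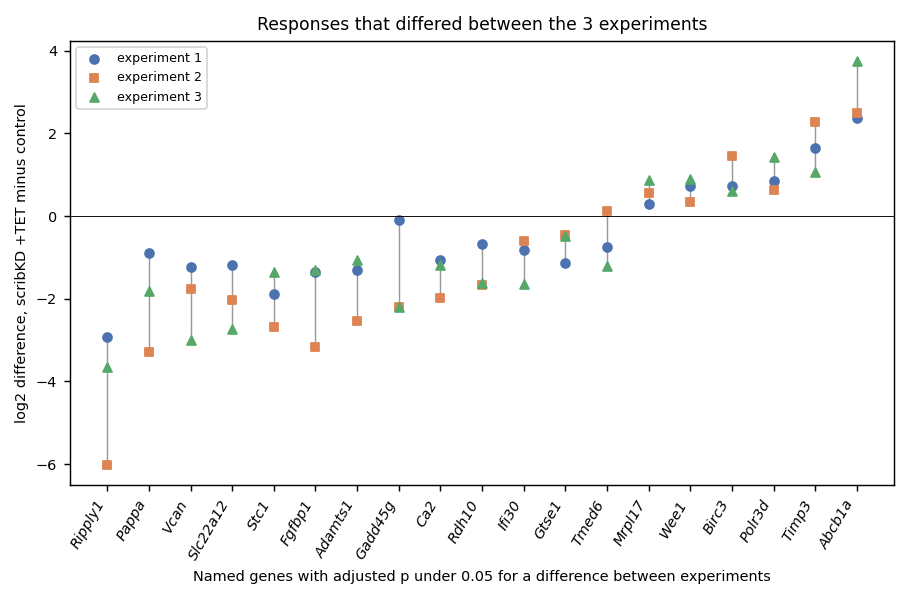
Log2 difference between scribKD and control cells in experiments 1 (circles), 2 (squares) and 3 (triangles) for the 19 described genes whose difference varied between experiments at an adjusted p under 0.05, with grey lines spanning the 3 values. Ripply1 ranges from -2.91 to -6.02 and Abcb1a from 2.37 to 3.76.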

How the data were processed

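MDCK-pTR scribble shRNA cells were sequenced without (control) and with tetracycline (scribKD) in 3 experiments of 2 libraries per group. The authors trimmed reads by quality, mapped them to the dog genome with TopHat2 (2.0.6 in the submitters' processing notes), counted reads over transcripts and deposited 1 table of RPKM values per sequencing run. RPKM is already scaled by transcript length and library reads, so a few abundant transcripts can shift all others. How reads matching several transcripts were divided is not given in the sources used here, which leaves close paralogs such as keratins uncertain. The study tested read counts, whereas the test here had to suit RPKM. Whole reads were recovered from the steps of low RPKM values for all 18873 transcripts above 0, with 100% of values whole within 0.001 reads, and served for depth and a voom fit.

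Values were fitted as log2(RPKM + 0.1) in limma 3.58.1 (R 4.3.3), with an intensity trend and the experiment as a block, over transcripts with a mean of at least 1 RPKM in the 12 libraries. Tests were two-sided and adjusted by the Benjamini-Hochberg method. Fold changes on this scale understate those of low transcripts. A transcript was called where its adjusted p was below 0.05 and its log2 fold change exceeded 0.5 in size. The response by experiment was an interaction F-test in the same model. On simulated data for this comparison, 98.7% of transcripts given a 1-unit log2 change and 0.0308% of unchanged ones were called over 13179 tested on average in 3 simulations. The simulated libraries were independent, and each experiment shifted both groups alike, with the same response in every experiment. The real libraries of an experiment were not independent and some responses varied, so these rates check the fit and are not error rates of these data. Other steps used Python 3.11.15, numpy 2.4.6, pandas 2.3.3 and matplotlib 3.10.9.

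Names were found for 1807 of 21571 transcripts (8.38%), 485 through the RefSeq gene table (UU_Cfam_GSD_1.0, matched by accession) and 1322 only in the authors' list of transcripts that they called in this comparison. Of 44 transcripts named by both, 37 had the same symbol; the authors' names are those of mouse orthologues. A second table of the study named 25 of 244 shared transcripts differently and was not used. Of 1583 named genes tested, 21 had more than 1 transcript. The fold changes and p-values in the study's tables were not used. The genes named by rule were Scrib, the 10 largest called rises and falls with a name and the same direction in all experiments, the 3 largest of each per gene list, and the tested polarity genes; of these 133 are given. Another 53 were list members named after their values were seen, and gene lists carry no test. The members, lists and rules were chosen with earlier results of these data known. Alternatives covered pseudocounts, filters, scaling, trend, blocks, experiment means, thresholds, voom and leaving out libraries or experiments. Some items that the rule named are not reported here. The resistant population was not analysed here except in 1 alternative.

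Libraries deviated together by experiment: the deviations from the group means correlated at a mean of 0.58 between same-numbered control and scribKD libraries (0.35 to 0.71, 6 pairs), at 0.65 between other libraries of the same experiment and at -0.31 between experiments. The pairing by experiment comes from the labels.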

Additional observations from a re-analysis of the deposited data

Results flagged for a closer look

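The difference between scribKD and control cells varied between the 3 experiments for 19 of the 186 genes named, by the interaction F-test in limma with Benjamini-Hochberg adjustment over all tested transcripts. That test sets differences between experiments against the spread between libraries within an experiment only. Among genes that fell, the adjusted p was 0.012 for Vcan, 0.0144 for Slc22a12, 0.0143 for Fgfbp1, 0.0144 for Ca2, 0.0144 for Rdh10, 0.015 for Stc1, 0.015 for Ripply1, 0.0166 for Pappa and 0.0386 for Adamts1. Rdh10, a retinol dehydrogenase, had log2 differences of -0.67, -1.67 and -1.63 in experiments 1, 2 and 3, and Pappa of -0.90, -3.30 and -1.82. Tmed6, of the vesicle coat receptor family, was lower in experiments 1 and 3 and slightly higher in experiment 2 (-0.76, 0.14 and -1.20, adjusted p = 0.0149). Gadd45g (-0.10, -2.21 and -2.21, adjusted p = 0.0437) fell in experiments 2 and 3 and hardly differed in experiment 1. Ifi30 (-0.82, -0.61 and -1.65, adjusted p = 0.0319) fell most in experiment 3, and Gtse1 (-1.12, -0.47 and -0.48, adjusted p = 0.0416) in experiment 1.

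Among genes that rose, the adjusted p was 0.0259 for Birc3 (0.73, 1.46 and 0.60), 0.0287 for Polr3d (0.84, 0.64 and 1.43), 0.0337 for Abcb1a, 0.0368 for Timp3, 0.0431 for Wee1 (0.72, 0.33 and 0.89) and 0.048 for Mrpl17 (0.29, 0.55 and 0.89). The cause of these differences was not tested.

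A single library stood far from the other 5 of its group, by Dixon's ratio above 0.625, in 3 of 372 gene and group combinations, where chance flags about 1 in 20. Control replicate 5 was high for Celsr1 at 5.75 RPKM (ratio 0.735), scribKD replicate 2 was high for Maff at 39.0 RPKM (ratio 0.648), and control replicate 2 was high for Map1b at 1.61 RPKM (ratio 0.732). The calls of Maff and Map1b were kept when each library was left out in turn, and that of Celsr1 was lost without control replicate 5 (log2 fold change -0.44) and without 4 other libraries.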

How the results depend on the processing

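The 1943 calls became 1265 with no replicate block, 1894 with the replicate number as the block, 1797 on experiment means blocked by experiment, 1015 under a filter modelled on the study's (all libraries of at least 1 group above 5 RPKM and within 2-fold, where the study used depth-scaled counts) and 6281 with no fold change threshold. On experiment means without a block, an alternative chosen after seeing the data, 9 remained, and Scrib had the same log2 fold change of -1.17 with an adjusted p of 0.0663. The same-numbered libraries shared only a number within their experiment. Leaving out 1 library gave 1915 to 1998 calls and leaving out 1 experiment 1982 to 2026, of which 1607 to 1653 were among the 1943. The voom fit on recovered reads gave 1965 calls, 1865 of them among the 1943. The 440 transcripts with a response that varied by experiment became 187 with no filter, 725 under the filter modelled on the study's and 138 without the trend. No named gene with a call in the main fit or in an alternative changed direction between them. Among genes not called, Vegfa ran from -0.11 to 0.08 and Ocln from -0.008 to 0.069 over the alternatives. Without the block 37 of 185 named genes besides Scrib lost their call, under a pseudocount of 1 it was 7, and without experiment 3 it was 18. Leaving out 1 library changed the call of 10 (Adm, Bcat2, Mrpl41, Celsr1, Celsr2, Frmd6, Uggt2, Arl13b, Crot and Txnrd3). Kidney tubule genes were lower in 18 of 35 with no block and in 18 without experiment 3. Low transcripts limit precision: Ccl2 and B4galnt2 had as few as 0 and 2 reads in a library.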

Other observations

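Transcripts without a name at hand included changes as large as those described. XM_542839.3 was at 0.312 to 3.17 RPKM in control and 3.74 to 12.9 RPKM in scribKD cells, without overlap, with a log2 fold change of 3.05. The 2 largest unnamed falls were those of AF123396.1 and AF095824.1, records of 144 and 149 bases with at most 15 and 16 reads in any library and log2 fold changes of -3.51 and -3.31.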
